A study of Rattus norvegicus with 10 samples.

Results

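The miR-181 family was examined in the left ventricle of rats that received either saline or dexmedetomidine (DEX), an agonist of alpha2 adrenergic receptors used for sedation. The members were chosen by name from the probes of a one-colour microRNA (miRNA) microarray: rno-miR-181a-5p, rno-miR-181b-5p, rno-miR-181c-5p, rno-miR-181c-3p and rno-miR-181d-5p, 5 of the 761 rat miRNAs on each array. All rats were male Wistar animals of 250 to 350 g, with no age given. The Control group (5 arrays) received saline, and the DEX group (5 arrays) received DEX by infusion for 30 min, as a loading dose and then a maintenance dose, followed by a short saline washout. Each array held total RNA from the anterior wall of the left ventricle of 1 rat. The comparison asks whether the miRNA content of the heart differed just after the infusion. No ischaemia was applied to these hearts. Since whole ventricular wall was used, fewer cells of a type and less miRNA per cell cannot be told apart.

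A miRNA directs the silencing of messenger RNAs that pair with its seed, the bases near its 5′ end. Members of a family share the seed and so share many predicted targets, while the rest of the sequence differs. The miR-181 family is known from lymphocyte development, where miR-181a tunes T cell receptor signalling, and from blood vessels, where miR-181b dampens NF-κB signalling in endothelial cells. In heart muscle cells miR-181c is known to enter mitochondria and to act there on the mitochondrial transcript of cytochrome c oxidase subunit 1. These are roles known from other work and not results of these arrays.

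The mature sequences are shown first because the probes that share a seed differ by very few bases, which bears on every value that follows. They are RefSeq sequences placed on the rat build GRCr8, printed 5′ to 3′ with the seed (bases 2 to 8) in capitals, and all 5 members were matched by name.
rno-miR-181a-5p: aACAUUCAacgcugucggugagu
rno-miR-181b-5p: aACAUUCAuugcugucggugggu
rno-miR-181c-5p: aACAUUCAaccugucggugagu
rno-miR-181d-5p: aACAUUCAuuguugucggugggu
rno-miR-181c-3p: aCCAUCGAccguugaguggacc
The 4 members from the 5p arm share the seed ACAUUCA, and among the 685 miRNAs of the array with a RefSeq sequence no other carried it. The seed CCAUCGA of rno-miR-181c-3p was shared with rno-miR-181a-1-3p alone. Outside the seed, rno-miR-181b-5p differed from rno-miR-181d-5p by the single substitution C12U, counted from 1 at the 5′ end of the first-named miRNA. Rno-miR-181a-5p differed from rno-miR-181b-5p by A9U, C10U and A21G, and from rno-miR-181c-5p by 1 base that rno-miR-181c-5p lacks. A signal may therefore hold RNA of another member: how far the probes tell the members apart was not measured on these arrays, and differences between members of the 5p arm are uncertain for that reason. Rno-miR-181c-3p and rno-miR-181a-1-3p also differ by few bases, so the same limit applies to the values of rno-miR-181c-3p.

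The family is encoded at 6 loci in 3 pairs. Rno-miR-181a-5p lies at chr13:52037081-52037103 (Mir181a-1) with rno-miR-181b-5p at chr13:52037263-52037285 (Mir181b1), their starts 182 bases apart. Mir181a-1 and Mir181b1 both overlap a long noncoding RNA gene, and Mir181a-1 also overlaps the miRNA gene Mir3570. Rno-miR-181a-5p is encoded a further time at chr3:43025601-43025623 (Mir181a2), with the Mir181b2 hairpin starting 1103 bases after that of Mir181a2. Both of these loci overlap the protein-coding gene Nr6a1 and also a long noncoding RNA gene, whose strands are not given here. Rno-miR-181c-5p lies at chr19:40888314-40888335 and rno-miR-181c-3p at chr19:40888353-40888374, with rno-miR-181d-5p at chr19:40888484-40888506, and no other annotated gene overlaps the hairpins Mir181c and Mir181d. All loci named are on the plus strand. The Mir181b2 hairpin also contains the sequence of rno-miR-181b-5p. The arrays measure mature miRNA, so which locus a 5p miRNA of miR-181a or miR-181b came from cannot be told apart. The Mir181c hairpin is shown because both of its arms are members, which are in capitals.
Mir181c: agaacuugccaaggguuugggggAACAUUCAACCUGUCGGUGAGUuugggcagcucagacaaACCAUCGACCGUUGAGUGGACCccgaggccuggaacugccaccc

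The signal of a spot, in arbitrary units, was taken over the blank spots of its array and scaled so that the median over the detected miRNAs of each array was 25. A miRNA counted as detected where the deposited value table held a value. Going by the names of the deposited scans, 3 slides were used, though no header states the slide. Slide 1 carried the first 4 Control arrays, slide 2 carried Control 5 and the first 3 DEX arrays, and slide 3 carried DEX 4 and DEX 5. Between 483 and 533 miRNAs were detected per array. DEX 1 was the dimmest array, with a scale factor of 1.45 against 0.467 to 0.705 on the others, and spots without a probe were raised on DEX 4 and DEX 5 (37.7 and 28.8 over blank, against -0.797 to 10.2 elsewhere). All 5 miRNAs of a muscle list, 2 of 2 of an endothelial list, 5 of 5 of a leukocyte list and 3 of 3 of a red cell list were detected on every array.

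All 5 members were detected on 10 of 10 arrays, and all 5 passed the filter of detection on at least 5 arrays that left 503 miRNAs for testing. Their distance from the detection limit differed. The lowest value of rno-miR-181a-5p was 39.6 times the floor of its array, the lowest signal among the detected miRNAs there. The corresponding factor was 9.27 for rno-miR-181c-5p, 6.57 for rno-miR-181b-5p, 5.75 for rno-miR-181d-5p and 1.17 for rno-miR-181c-3p. Before scaling, rno-miR-181c-3p on DEX 4 and DEX 5 lay below the median of spots without a probe (37.7 and 28.8 over blank). Detection was judged against blank spots only, and whether those values are signal of this miRNA was not tested. Probes differ in affinity, so signals are not compared in level between members.

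A difference between DEX and Control was not detected for any member. With limma, a linear model that shares the estimate of spread over all miRNAs, 0 of 5 members had an adjusted p under 0.05 (Benjamini-Hochberg over all 503), where 0% of all tested miRNAs did, and 0 of 5 had an unadjusted p under 0.05, where 2.98% of all did. The methods' t-test, at their threshold on p and a change of at least 1.5-fold, gave 0 of 5 members, against 1.59% of all. It was run on the log2 values and the filter used here, not on the authors' scores, so its count is not that of the paper. All 5 log2 differences (DEX minus Control) were above 0, with a median of 0.12, but without scaling between arrays only 1 of 5 was and with quantile scaling 4 of 5 were. Among all tested miRNAs 59.2% were above 0, with a median of 0.044. In every member the groups overlapped, while 0.596% of tested miRNAs had groups that did not.

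**Figure D1:**
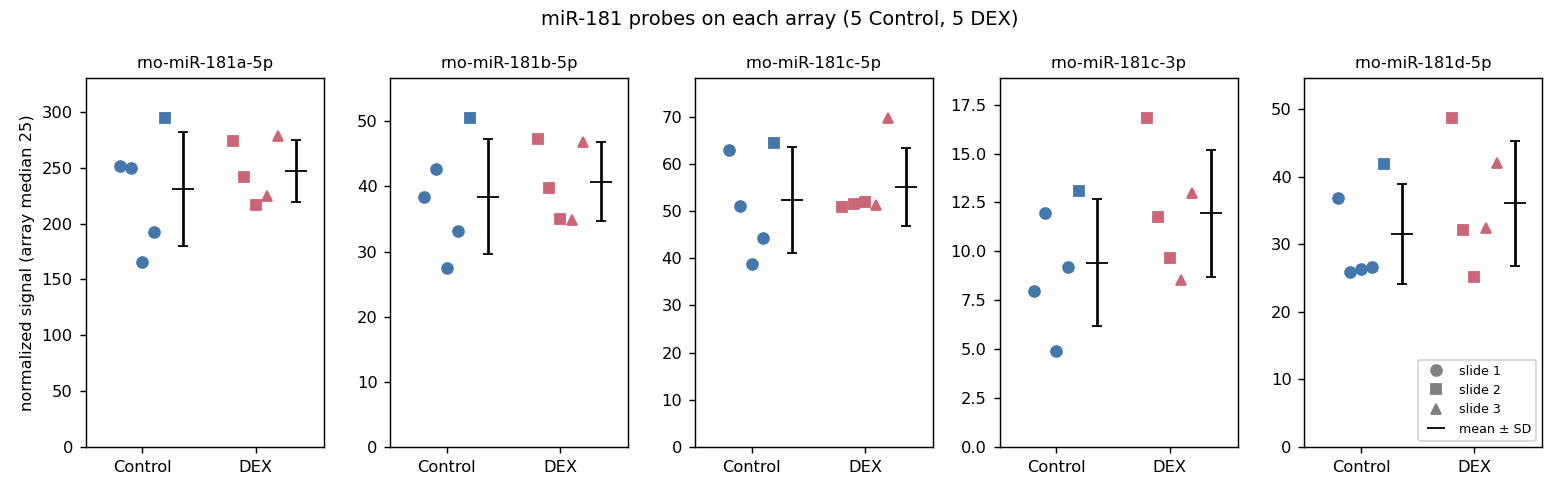
Normalized signal (vertical axis, arbitrary units, array median 25) of each member on the 5 Control and 5 DEX arrays; each point is 1 array, its shape gives the slide, and bars are mean ± SD. The groups overlap in each panel, and DEX 5 stands above the other DEX arrays for rno-miR-181c-5p.

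Rno-miR-181c-5p, the guide arm known from heart mitochondria, had normalized signals, in the order of replicate number, of 63.0, 51.1, 38.8, 44.3 and 64.5 in Control and 51.0, 51.5, 52.0, 51.3 and 69.8 in DEX. DEX 1 to DEX 4 were close together in the middle of the Control range, and DEX 5 alone was above all Control arrays. The means ± SD were 52.3 ± 11.3 for Control and 55.1 ± 8.20 for DEX (n = 5 per group, two-sided exact permutation test on log2 values, p = 0.571). The smallest p that this test can give with these groups is 0.00794. By limma the log2 difference was 0.091 ± 0.17 (SE, adjusted p 0.914). Its 95% interval ran from 0.821-fold to 1.38-fold. The log2 difference became 0.0030 without DEX 5 and turned to -0.010 without Control 3.

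Rno-miR-181c-3p comes from the other strand of the same hairpin and carries a different seed. In the same order its normalized signals were 7.99, 11.97, 4.90, 9.20 and 13.1 in Control and 16.8, 11.8, 9.64, 8.53 and 13 in DEX. The highest value was on DEX 1, the dimmest array before scaling, and the lowest on Control 3. The DEX 4 and DEX 5 values, as given above, lay below the median of spots without a probe before scaling. Control averaged 9.43 ± 3.26 and DEX 11.9 ± 3.24 (mean ± SD, n = 5 per group, two-sided exact permutation test, p = 0.246). By limma the log2 difference, the highest of the members, was 0.38 ± 0.27 (SE, adjusted p 0.906), with a 95% interval from 0.873-fold to 1.94-fold. It became 0.17 without Control 3 and 0.25 without DEX 1. Under other background corrections it was 0.014 (normexp on the scanner background, where it was the lowest of the members and rno-miR-181b-5p the highest at 0.16), 0.095 (normexp on the blank mean) and 0.046 (none removed).

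Rno-miR-181d-5p follows miR-181c in the chromosome 19 pair. The 5 Control arrays gave normalized signals of 36.9, 25.9, 26.3, 26.6 and 41.9, and the 5 DEX arrays gave 48.7, 32.0, 25.2, 32.4 and 42.0. Control 2 to Control 4 lay together near the bottom, DEX 3 was the lowest array, and DEX 1 the highest. Control averaged 31.5 ± 7.38 and DEX 36.1 ± 9.25 (mean ± SD, n = 5 per group, two-sided exact permutation test, p = 0.421). The limma log2 difference was 0.19 ± 0.21 (SE, adjusted p 0.906), with a 95% interval from 0.833-fold to 1.55-fold. Without DEX 1 the log2 difference became 0.068.

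Rno-miR-181a-5p, the member best known from T cells, gave normalized signals of 251.5, 249.6, 166, 193 and 295 in Control and 274, 242, 217, 225 and 279 in DEX, by replicate number. The Control arrays spanned both the lowest and the highest value, and the DEX arrays fell inside that span. The means ± SD were 231 ± 51.3 for Control and 247 ± 28.1 for DEX (n = 5 per group, two-sided exact permutation test, p = 0.492). The limma log2 difference was 0.12 ± 0.17 (SE, adjusted p 0.914), with a 95% interval from 0.839-fold to 1.41-fold. Without Control 3 the log2 difference became 0.0087.

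Rno-miR-181b-5p, known from vascular endothelium, gave normalized signals of 38.4, 42.6, 27.5, 33.1 and 50.5 in Control and 47.3, 39.7, 34.9, 34.9 and 46.8 in DEX. As for rno-miR-181a-5p, Control 3 was the lowest array, Control 5 the highest, and the DEX arrays lay between them. Control averaged 38.4 ± 8.83 and DEX 40.7 ± 6.10 (mean ± SD, n = 5 per group, two-sided exact permutation test, p = 0.603). The limma log2 difference was 0.10 ± 0.18 (SE, adjusted p 0.914), with a 95% interval from 0.819-fold to 1.41-fold, and it turned to -0.011 without Control 3. A change of 1.5-fold in either direction thus lay outside the interval for rno-miR-181a-5p, rno-miR-181b-5p and rno-miR-181c-5p, while a 1.5-fold higher level in DEX lay inside it for rno-miR-181c-3p and rno-miR-181d-5p. These intervals are those of the main setting and leave out the slide. The SE was larger in some other settings, at 0.34 for rno-miR-181a-5p with normexp on the scanner background. Without scaling between arrays it was 0.35 for rno-miR-181a-5p, rno-miR-181b-5p and rno-miR-181c-5p. The main intervals therefore do not exclude a 1.5-fold change under other processing. With slide as a fixed term the lower ends of the intervals were 0.519-fold, 0.495-fold and 0.502-fold for rno-miR-181a-5p, rno-miR-181b-5p and rno-miR-181c-5p, so that a 1.5-fold lower level in DEX lay inside them.

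The spread between replicates, pooled over both groups on the log2 scale, was 0.26 for rno-miR-181a-5p, 0.26 for rno-miR-181c-5p, 0.28 for rno-miR-181b-5p, 0.35 for rno-miR-181d-5p and 0.48 for rno-miR-181c-3p. The median over all tested miRNAs was 0.30. Rno-miR-181c-3p fell among the dimmest 168 tested miRNAs, where the median spread was 0.48, the same as its own.

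Slide and group were largely entangled, and on slide 2, the only slide with both groups, Control 5 was the single Control array. It was above its own mean over the 10 arrays for 5 of 5 members. Within slide 2 the DEX arrays stood below Control 5 in mean log2 signal by values from -0.077 for rno-miR-181c-3p to -0.33 for rno-miR-181b-5p. Fitting slide as a fixed term gave log2 differences of these same values, with standard errors of 0.30 to 0.47 (smallest adjusted p among the members 0.898), and the median over all tested miRNAs went from 0.044 to -0.19. The positive sign of all 5 differences therefore did not hold within slide 2. With slide as a random term the differences ranged from 0.11 for rno-miR-181c-5p to 0.42 for rno-miR-181c-3p (smallest adjusted p 0.748). The correlation within slides estimated by that fit was -0.061. It therefore made no allowance for a shift shared by the arrays of a slide.

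**Figure D2:**
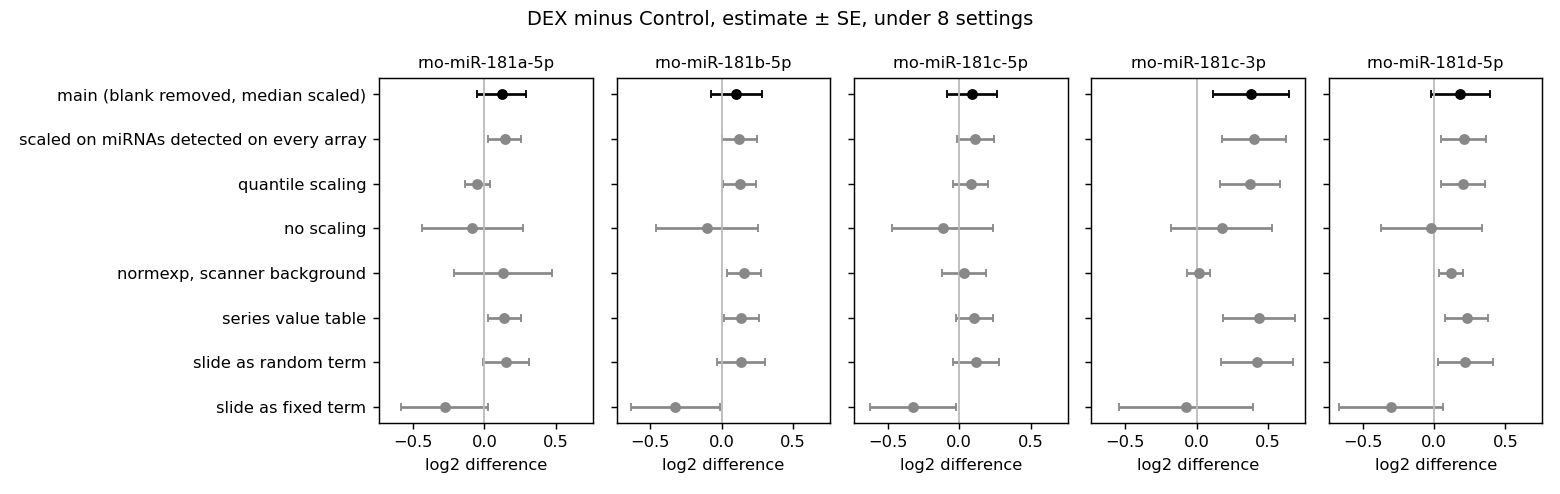
DEX minus Control log2 difference (horizontal axis) of each member under 8 settings (vertical axis); points are estimates and bars ± 1 SE, with the main setting in black. The estimates lie below 0 for every member with slide as a fixed term, for 4 of 5 members without scaling between arrays, and for rno-miR-181a-5p with quantile scaling.

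Whether members responded differently from each other was asked with the ratio of signals within an array, on the log2 scale, which does not depend on a constant scale factor per array, though it does on quantile scaling. 3 ratios were compared. The ratio of rno-miR-181c-3p to rno-miR-181c-5p, both arms of one hairpin, lay between -2.99 and -2.09 on the Control arrays and between -2.59 and -1.60 on the DEX arrays. On DEX 4 and DEX 5 this ratio uses rno-miR-181c-3p values that lay below the median of spots without a probe before scaling. Its group difference was 0.29 (95% interval -0.31 to 0.89, two-sided exact permutation test with n = 5 each, p = 0.278, adjusted over the 3 ratios 0.690). The difference for rno-miR-181d-5p over rno-miR-181c-5p was 0.094 (95% interval -0.31 to 0.50, exact permutation p = 0.690, adjusted 0.690), and it turned to -0.049 without DEX 1. The difference for rno-miR-181b-5p over rno-miR-181a-5p was -0.019 (95% interval -0.11 to 0.077, exact permutation p = 0.643, adjusted 0.690), and with quantile scaling it was 0.18 (exact permutation p = 0.0952), outside that interval. A difference in response between the members of any of these pairs was not detected.

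With the blank mean subtracted, the ratio of rno-miR-181b-5p to rno-miR-181a-5p was the steadiest of the member pairs from rat to rat. Its pooled SD between replicates was 0.066 on the log2 scale. Over all 81810 pairs of the 405 miRNAs detected on every array the median was 0.35, and 0.133% of pairs had a lower SD than this one. That share was 2.11% with quantile scaling, and it rose with other background corrections, to 29.1% with normexp on the blank mean, 37.0% with no background removed and 57.1% with normexp on the scanner background, so that the steadiness rested on the background correction. The corresponding SD was 0.14 for rno-miR-181a-5p with rno-miR-181c-5p, 0.24 for rno-miR-181b-5p with rno-miR-181d-5p, 0.28 for rno-miR-181c-5p with rno-miR-181d-5p and 0.41 for the arms of miR-181c. Of the pairs that differ by 1 base, the one with the single substitution (rno-miR-181b-5p and rno-miR-181d-5p) had 21.1% of all pairs lower. The one with 1 missing base (rno-miR-181a-5p and rno-miR-181c-5p) had 4.05% lower. These SDs were not taken in the other settings, and whether a probe binds RNA of another member was not tested.

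In the main setting, members tended to go up and down together over the arrays. 5 of 5 members were above their own mean on Control 5 and DEX 5, and 0 of 5 on Control 3, Control 4, DEX 3 and DEX 4. The arrays with members high and the arrays with members low thus came from both groups. The share of all miRNAs above their own mean on these arrays was not taken, so whether the swings are particular to the family was not tested.

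**Figure D3:**
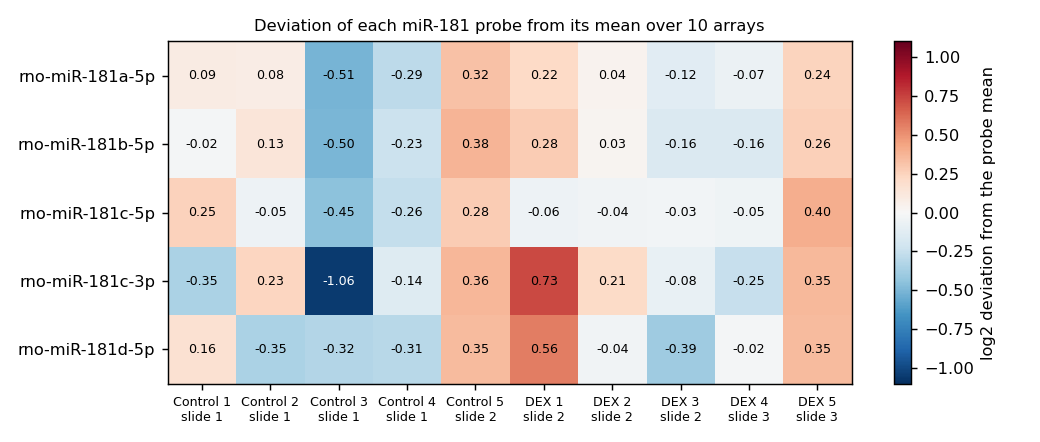
Deviation of each member from its own mean over the 10 arrays (colour and printed value, log2 scale), with arrays in columns and members in rows. All members are low on Control 3 and high on Control 5 and DEX 5, and rno-miR-181c-3p has the widest swings, from -1.06 to 0.73.

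Over the 10 pairs of members the median Pearson r of log2 signal was 0.771, with 7 of 10 pairs below 0.05 in a permutation test (100000 resamples, Benjamini-Hochberg over the 10 pairs), and 4 of 10 by Spearman's rho. Rno-miR-181a-5p and rno-miR-181b-5p had r = 0.973 (permutation p = 1e-05, the smallest these resamples can give, adjusted 1e-04) and rho = 0.939 (permutation p = 0.00032, adjusted 0.0032) over 10 arrays. Without Control 3 and Control 4, the arrays farthest from the median of rno-miR-181a-5p, r was 0.966, and with group means removed it was 0.973 over all arrays. The arms of miR-181c had r = 0.549 (permutation p = 0.100, adjusted 0.100) and rho = 0.333 (permutation p = 0.348, adjusted 0.348), and without Control 3 and DEX 5 r was 0.0026, so that this relation rested on those arrays. Rno-miR-181c-5p and rno-miR-181d-5p, neighbours on chromosome 19, had r = 0.641 (permutation p = 0.0476, adjusted 0.0595) and rho = 0.382 (permutation p = 0.281, adjusted 0.312), with r = 0.511 without Control 3 and DEX 5. With slide means removed, the median r over the 10 pairs was 0.729. Slides held at most 4 arrays, too few for an r within a slide.

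**Figure D4:**
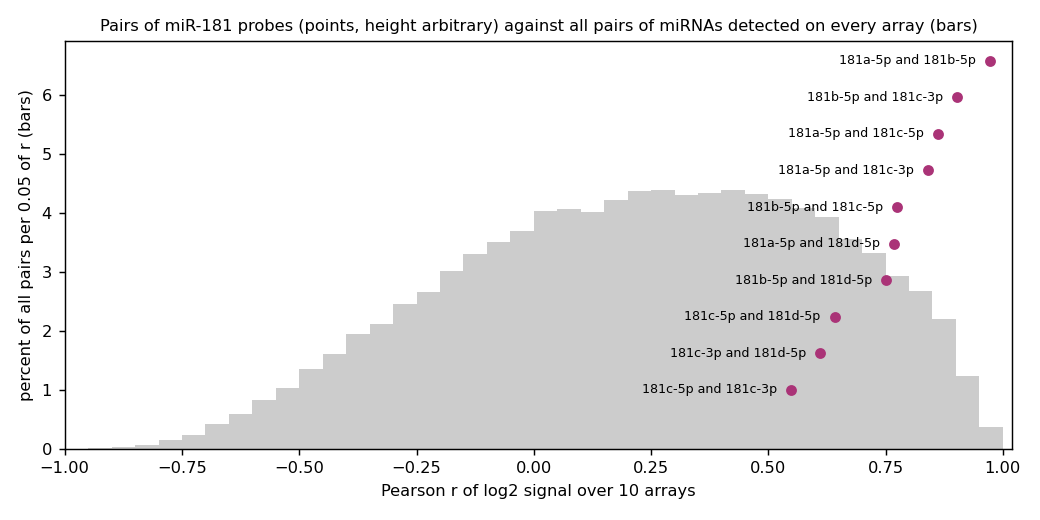
Pearson r of log2 signal over 10 arrays (horizontal axis) for the 10 pairs of members (points, vertical position arbitrary) and for all 81810 pairs of miRNAs detected on every array (bars, percent of pairs per 0.05 of r). The pair of rno-miR-181a-5p and rno-miR-181b-5p lies at the upper end, and the arms of miR-181c, at 0.549, lie near the upper quartile of all pairs (0.542).

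Many pairs outside the family were as alike. The median r over all 81810 pairs was 0.253, and 16.9% of them had an r at least as high as the lowest among the 6 pairs of 5p members (0.641). It also moved with the scaling. With arrays scaled on the 405 miRNAs detected on every array, the median r was 0.539 over the member pairs and 0.043 over all pairs, and with quantile scaling 0.339 and 0.011. For rno-miR-181a-5p and rno-miR-181b-5p r was 0.932 and 0.426 in these settings. The pair of rno-miR-181b-5p and rno-miR-181c-3p kept an r of 0.915 and 0.870 there, against 0.902 in the main setting, but it was -0.17 with the scanner's own background removed by normexp. Each scaled signal contains the scale factor of its array, so a relation between them is partly built in. The permutation p values here assume that there is none, so they cannot show a relation beyond the scaling. For the members r with the log2 scale factor was from 0.230 for rno-miR-181c-5p (permutation p = 0.498, adjusted 0.581 over 7 probes, with rho = 0.503, permutation p = 0.146, adjusted 0.170) to 0.771 for rno-miR-181d-5p (permutation p = 0.00145, adjusted 0.0102, with rho = 0.588, permutation p = 0.0809, adjusted 0.142) over 10 arrays. Without Control 5 and DEX 1 these r values were 0.806 and 0.646. By rank the adjusted p was under 0.05 for rno-miR-181a-5p (rho = 0.806, permutation p = 0.00709, adjusted 0.0248, with r = 0.541, permutation p = 0.115, adjusted 0.201) and rno-miR-181b-5p (rho = 0.818, permutation p = 0.00577, adjusted 0.0248, with r = 0.588, permutation p = 0.0714, adjusted 0.201), with r values of 0.606 and 0.519 without those arrays. The median over the 405 miRNAs was 0.320. With the log2 scale factor fitted out, the median r over the member pairs was 0.758. The part of array brightness in the shared swings was not tested.

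The miRNAs whose pattern over the 10 arrays was most like each member, out of 404, were taken by Pearson r and are given as a description, without a test. For rno-miR-181a-5p they were rno-miR-23b-3p (0.976), rno-miR-195-5p (0.972) and rno-miR-30e-3p (0.971), with rno-miR-181b-5p at rank 2, a rank that became 53 with quantile scaling, 102 with normexp on the blank mean and 51 with no background removed. For rno-miR-181b-5p they were rno-let-7b-5p (0.983), rno-let-7c-5p (0.982) and rno-miR-103-3p (0.978), with rno-miR-181a-5p at rank 5. Other miRNAs were therefore as close to this pair as its members were to each other. For rno-miR-181c-5p they were rno-miR-347 (0.948), rno-miR-30a-3p (0.935) and rno-miR-125a-5p (0.909), with rno-miR-181a-5p at rank 18 as the nearest member. For rno-miR-181c-3p they were rno-miR-199a-3p (0.926), rno-miR-152-3p (0.913) and rno-miR-100-5p (0.903), with rno-miR-181b-5p at rank 4 and its own opposite arm at rank 158. For rno-miR-181d-5p they were rno-miR-3068-5p (0.974), rno-miR-126a-3p (0.925) and rno-miR-1-3p (0.924), with rno-miR-181a-5p at rank 75 as the nearest member.

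The array carried 5 more probes for the family, all for 3p arms, and 3 of them passed the filter. Rno-miR-181a-2-3p, which comes from the chromosome 3 locus alone, was detected on 10 of 10 arrays. Its normalized signals were 115, 108, 122, 128 and 129 in Control and 114, 109.7, 93.4, 129 and 107 in DEX. Its log2 difference was -0.13 ± 0.13 by limma (SE, adjusted p 0.906). In the main setting it was the only one below 0 among the 8 tested probes of the family, where 59.2% of all tested miRNAs were above 0. The signs of the members turned in other settings, as given above. Its likeness to the 5 members was low or negative, with r from -0.234 for rno-miR-181c-3p to 0.180 for rno-miR-181d-5p, given as a description. Rno-miR-181a-1-3p, from the chromosome 13 locus, was detected on 10 of 10 arrays, averaged 17.3 ± 3.95 in the Control group and 18.1 ± 3.10 in the DEX group (mean ± SD, n = 5 per group), and differed by 0.075 ± 0.18 on the log2 scale (SE, limma adjusted p 0.930). Unlike rno-miR-181a-2-3p it had r = 0.837 with rno-miR-181a-5p in the main setting, at rank 83 of 404. This is given as a description, and a link to the locus of origin was not tested.
rno-miR-181a-1-3p: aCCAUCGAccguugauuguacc
rno-miR-181a-2-3p: aCCACCAAccguugacugu
These sequences are shown because the 3p arms, unlike the shared 5p arm, tell the loci of miR-181a apart. Rno-miR-181d-3p was detected on 6 of 10 arrays, and its groups differed by 0.15 ± 0.37 on the log2 scale (SE, limma adjusted p 0.930). Its DEX 4 and DEX 5 signals also lay below the median of spots without a probe before scaling. Rno-miR-181b-1-3p was detected on 3 of 10 arrays and rno-miR-181b-2-3p on 0 of 10, and neither was tested.

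Other miRNAs known for acts on mitochondria were given as context. They were rno-miR-1-3p, rno-let-7b-5p, rno-miR-21-5p, rno-miR-146a-5p, rno-miR-378a-3p, rno-miR-210-3p, rno-miR-499-5p, rno-miR-484, rno-miR-761, rno-miR-140-5p and 4 members of the miR-30 family (a, c, d and e, 5p arms). All 14 were tested, 0 of 14 passed an adjusted p of 0.05 (0% of all tested) and 0 of 14 an unadjusted one (2.98% of all), 12 were above 0 and 2 below (59.2% of all were above 0), and the median log2 difference was 0.13, against 0.12 for the miR-181 members and 0.044 over all tested miRNAs. The highest was rno-miR-21-5p at 0.37 ± 0.23 (SE, limma adjusted p 0.906), and the lowest was rno-miR-761, known to act on the mitochondrial fission factor, at -0.22 ± 0.24 (SE, limma adjusted p 0.906).

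Since miR-181 is also expressed in white blood cells and endothelium, marker miRNAs of these cells are set beside it. The leukocyte list held both arms of rno-miR-142, with rno-miR-223-3p, rno-miR-146a-5p and rno-miR-150-5p. With limma 0 of 5 passed an adjusted p of 0.05 (0% of all tested) and 0 of 5 an unadjusted one (2.98% of all). All 5 of 5 were above 0, where 59.2% of all were. The median log2 difference was 0.21, from 0.080 for rno-miR-146a-5p to 0.34 for rno-miR-223-3p. The summed signal of this list was 904 to 1153 in Control and 1023 to 1365 in DEX. Of the endothelial list, rno-miR-126a-3p stood at 0.13 and rno-miR-126a-5p at 0.0082, with a summed signal of 4360.3 to 5783 in Control and 4370.1 to 6739 in DEX. Of the red cell list 0 of 3 passed either threshold (0% and 2.98% of all). Above 0 was 1 of 3 (59.2% of all), and 2 of 3 were below 0. The median log2 difference was -0.59, from -0.75 for rno-miR-144-3p to 0.019 for rno-miR-486. The summed signal was 564 to 1028 in Control and 349 to 1004 in DEX. The muscle list had a median of 0.14, from -0.013 for rno-miR-133b-3p to 0.16 for rno-miR-1-3p, with 4 of 5 above 0 (59.2% of all). Its summed signal was 32198 to 45996 in Control and 31082 to 44985 in DEX. None of the endothelial and muscle markers passed either threshold (0% and 2.98% of all), and no marker of the 4 lists was at the floor on any array. Rno-miR-1-3p, rno-miR-499-5p and rno-miR-146a-5p are each in the mitochondrial list and in one of these. The part of cell content in the member values was not tested.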

How the data were processed

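The deposited scanner files hold, per the file headers, a median intensity at 635 nm for every spot. It combines 3 gain settings of the scanner and still contains the background. The authors' second table holds a score per miRNA and array, scaled globally to a median of 25 and rounded to whole numbers, with a value only where the miRNA was detected (the spot above the blank mean plus 2 SD). Of 7610 calls, 2 departed from this rule. No column was left unused (0). The miRBase release and the versions of the scanner software were not given in the sources used here. The labels name an RNeasy kit and the methods an miRNeasy kit for extraction.

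From each spot the blank mean (5% trimmed at either end) was subtracted, each array was scaled to a median of 25 over its own detected miRNAs, undetected miRNAs were set to the floor, spots marked as bad were treated as missing, and values were put on the log2 scale. The number of arrays limits the precision. Groups and replicate numbers came from the sample titles. Detection on at least 5 of 10 arrays was required for testing (503 miRNAs). The test was limma 3.58.1, run in R 4.3.3 through lmFit and eBayes (two-sided, threshold 0.05), and its code was tested on simulated data. Single values were compared by exact permutation with scipy 1.17.1, and figures drawn with matplotlib 3.10.9. The methods' t-test was an alternative, as were other corrections, scalings, floors, filters, models and leaving out each array. Replicate numbers did not pair the arrays. The miRNAs named are the members, other miR-181 probes, the 3 miRNAs most like each member, and the highest and lowest of each list. The members and lists were chosen with earlier results of these data known.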

Additional observations from a re-analysis of the deposited data

Results flagged for a closer look

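Within DEX, rno-miR-181c-5p had a lone high value on DEX 5: its gap to the next array on the log2 scale was 0.937 of the range of the group, above the critical value of 0.71. Its normalized signal was 69.8 there and 51.0 to 52.0 on DEX 1 to DEX 4. All 5 members were above their own mean on DEX 5, and spots without a probe were raised on this array. Without DEX 5 the log2 difference of rno-miR-181c-5p was 0.0030, against 0.091 with it. The part of the array in this value was not tested. Of 14 groups of 5 arrays examined in this way (7 probes of the family in each of 2 groups), 1 had a lone extreme value, where chance gives about 0.7.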

How the results depend on the processing

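The counts of 0 calls over all tested miRNAs and of 0 of 5 members did not change in any of the 28 alternatives. The smallest adjusted p was 0.0609 to 0.997 over all miRNAs and 0.615 to 0.997 over the members. The unadjusted count over all miRNAs, 15, ranged from 7 to 36 (36 without Control 5), and that over the members was 0 throughout. Leaving out slide 3, normexp on the blank mean and quantile scaling for the ratios, the other settings for the spread of the ratio, and all alternatives for the correlations were chosen after the data had been seen.

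Signs of the member differences turned in few settings, and the cause was not tested. Without scaling the log2 differences were -0.085 (rno-miR-181a-5p), -0.10 (rno-miR-181b-5p), -0.11 (rno-miR-181c-5p) and -0.020 (rno-miR-181d-5p), where the median of all miRNAs moved to -0.16. With slide as a fixed term they were -0.28, -0.33, -0.32 and -0.30 in the same order and -0.077 for rno-miR-181c-3p. With quantile scaling rno-miR-181a-5p stood at -0.050. Normexp on the blank mean and no background removal left 5 of 5 members above 0, at 0.0044 to 0.095 and 0.017 to 0.046. Leaving out each array in turn gave 0.0087 to 0.22 for rno-miR-181a-5p, -0.011 to 0.21 for rno-miR-181b-5p, -0.010 to 0.17 for rno-miR-181c-5p, 0.17 to 0.52 for rno-miR-181c-3p and 0.068 to 0.31 for rno-miR-181d-5p, both negative values being without Control 3.

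The difference of the rno-miR-181c-3p to rno-miR-181c-5p ratio was -0.021 with normexp on the scanner background, and 0.13 to 0.40 when each array was left out. That of rno-miR-181d-5p to rno-miR-181c-5p was -0.049 to 0.20 when each array was left out. That of rno-miR-181b-5p to rno-miR-181a-5p was 0.028 and 0.020 with normexp on the scanner background and on the blank mean, 0.18 with quantile scaling, and -0.050 to 0.0016 when each array was left out, above 0 without DEX 4. The median r of the member pairs was 0.539 with scaling on miRNAs detected on every array, 0.339 with quantile scaling, 0.568 with the series value table, 0.013 with normexp on the scanner background, 0.624 with normexp on the blank mean, and 0.709 to 0.855 when each array was left out.

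Same-numbered arrays deviated from their group means with correlations of -0.081 to 0.11, and 1 of 5 Control arrays correlated best with its own number. With the replicate number as a block, 0 of 5 members passed (smallest adjusted p 0.673), 0 miRNAs passed over all (35 at an unadjusted p under 0.05), and the smallest adjusted p there was 0.0609.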
